A study of Mus musculus with 12 samples.

Results

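Caspases are proteases that cut their substrates after aspartate, and the genes described here encode 5 of them together with an inflammasome sensor and the cytokines that inflammasomes release. The 8 genes are Casp1, Casp4, Casp8, Casp9, Casp12, Nlrp3, Il1b and Il18. They were taken by symbol from the 22206 transcripts of the array table, and each had a single row of 10 probes that the table does not mark as cross-hybridizing. Casp4 was chosen by its array signal, which was higher on the high phosphorus diet, so its diet difference is given as a description without a test. The other 7 genes were listed by name.

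Gastrocnemius muscle came from male C57BL/6J mice bought at 19 weeks of age and listed at 6.5 months. The P0.3 group received a semi-synthetic diet with 0.3% phosphorus and the P1.2 group one with 1.2% phosphorus, both for 6 weeks, with potassium dihydrogen phosphate as the source in both and potassium bicarbonate added to the P0.3 diet. Clariom S arrays were run on RNA from 6 mice of each diet, with 1 array per mouse. Mice shared cages, and the labels do not give cage mates, so tests take each mouse as independent.

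In cells, caspase-8 is the initiator of apoptosis downstream of death receptors, and caspase-9 is the initiator activated by the mitochondrial apoptosome. Caspase-1 is activated on inflammasomes, of which NLRP3 is the best known sensor, and it matures the cytokines interleukin-1 beta and interleukin-18. The product of mouse Casp4, long called caspase-11, is activated by intracellular lipopolysaccharide and cuts gasdermin D, which opens pores in the membrane. In skeletal muscle most of this machinery is known from macrophages and other non-fibre cells, while apoptosis genes are also active in fibres.

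The tissue and the lower end of the scale were checked first. The 12 fast fibre markers had a median percentile of 99.9 among all transcripts and the 12 slow fibre markers one of 90.6. The slow fibre mean ran from 9.21 to 14.31 on the P0.3 arrays and from 9.86 to 14.37 on the P1.2 arrays. Beside these ranges the diet means differed by 0.04 (two-sided exact permutation test of the diet difference, p = 0.963). P1.2 replicate 12 and P0.3 replicate 9 had the highest fibroblast marker means of their diets, 11.56 and 10.53. In bulk tissue, fewer cells of a type and less RNA per cell cannot be told apart. The table holds no detection call. Olfactory and vomeronasal receptor transcripts, 1455 in all, served as a guide to unexpressed genes, and 95% of them had a mean log2 signal below 6.11. Casp1, Casp4, Casp8, Casp12 and Il1b had means above that level, and Casp9, Nlrp3 and Il18 below it, with Casp9 and Nlrp3 below it on all 12 arrays.

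Casp1, Casp4 and Casp12 are next to each other on chromosome 9 in the RefSeq annotation, with no other annotated gene between them. Their promoters are shown because these 3 neighbours had the highest diet differences of the 8 genes. The sequences are from RefSeq (GRCm38.p6), 250 bases before to 50 bases after the annotated start, all on the plus strand. Capitals mark matches to the NF-kappaB motif, to the interferon-stimulated response element (GAAA, any 2 bases, GAAA) or to the STAT motif TTCNNNGAA, searched on both strands. They lie at chr9:5298267-5298566 for Casp1, chr9:5308599-5308898 for Casp4 and chr9:5345226-5345525 for Casp12.
Casp1: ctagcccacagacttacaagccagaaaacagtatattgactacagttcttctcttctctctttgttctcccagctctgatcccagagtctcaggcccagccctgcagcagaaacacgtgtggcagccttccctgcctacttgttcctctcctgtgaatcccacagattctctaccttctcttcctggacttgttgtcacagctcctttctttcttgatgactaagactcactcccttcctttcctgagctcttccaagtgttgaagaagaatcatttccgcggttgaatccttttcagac
Casp4: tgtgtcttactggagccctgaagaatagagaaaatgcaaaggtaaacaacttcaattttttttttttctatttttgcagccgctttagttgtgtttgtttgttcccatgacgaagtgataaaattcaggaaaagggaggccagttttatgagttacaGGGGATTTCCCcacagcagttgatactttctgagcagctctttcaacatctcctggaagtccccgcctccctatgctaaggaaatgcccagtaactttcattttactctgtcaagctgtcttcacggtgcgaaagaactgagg
Casp12: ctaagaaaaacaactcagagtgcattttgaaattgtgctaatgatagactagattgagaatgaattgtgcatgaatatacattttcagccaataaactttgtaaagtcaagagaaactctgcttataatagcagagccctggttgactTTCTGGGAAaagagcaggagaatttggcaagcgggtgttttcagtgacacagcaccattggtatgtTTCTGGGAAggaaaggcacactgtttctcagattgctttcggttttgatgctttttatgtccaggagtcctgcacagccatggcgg

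The Casp4 promoter held overlapping NF-kappaB matches, counted in bases from the start. The match at -93 to -84 was on the plus strand only and that at -92 to -83 on both strands. A further Casp4 start in the table lies 11 bases downstream and has the same run. The Casp12 promoter held the STAT motif at bases -102 to -94 and again at -36 to -28. Any match to this motif is found on both strands by its form. The Casp1 promoter held none of these motifs. Of the 32851 promoters in the table, 4.51% held the NF-kappaB motif, 8.30% the STAT motif and 3.44% the interferon-stimulated response element. The 8 genes have 10 promoters, and a gene was counted if any of its promoters held the motif, while the percentages count single promoters. Among the 8 genes, 2 had an NF-kappaB match, Casp4 and Nlrp3, and 0 had the interferon-stimulated response element. The short interferon regulatory factor motif AANNGAAA, which every interferon-stimulated response element contains, occurred in a promoter of 6 of the 8 genes and in 23.9% of all promoters. These are matches of letters in a window and say nothing of binding.

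Of the 8 genes, 1 was higher and 0 were lower on the P1.2 diet at a fold change over 1.3 in size with an unadjusted limma p under 0.05, called the fold and p criteria here. The study's own criteria have the same fold and p limits but take p from the methods' test, which gave 142 higher and 222 lower transcripts and the same counts of 1 and 0 among the 8 genes. Over all 22206 transcripts, 0.919% were higher and 1.36% lower at these criteria (204 and 303 transcripts), a split that turned to 240 and 213 after quantile normalization and to 287 and 203 with arrays centred on their median. The gene that passed was Casp4, which had been chosen for this difference, so nothing is read from the count. No gene of the 8 had an adjusted p under 0.05. Neither did any of the 22206 transcripts, of which 722 (3.25%) had an unadjusted limma p under 0.05 and 810 one by the methods' test. The study's fold of 1.3, which is 0.38 on the log2 scale, was passed by 3 of the 8 genes when p is set aside, and these are the 3 neighbours, all higher. Of all transcripts 4.06% passed that fold in either direction and 1.79% in the higher one. The choice of Casp4 used this contrast, so the counts are a description.

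Casp4 signals on the P0.3 arrays had a lowest value of 6.28, a median of 6.45 and a highest value of 7.36. On the P1.2 arrays the lowest value was 6.66, the median 7.41 and the highest 7.91. The groups overlapped through P0.3 replicate 9, the only P0.3 array above 7, and P0.3 replicate 3. All 6 P1.2 arrays lay above the P0.3 mean, and 4 of the 6 P0.3 arrays lay below every P1.2 array. The means were 6.62 ± 0.41 (SD, n = 6) and 7.33 ± 0.47 (SD, n = 6), a difference of 0.71 on the log2 scale (standard error 0.23) or 1.64-fold. It was the 28th highest difference of all transcripts. Without P0.3 replicate 9 the difference was 0.86, and without P1.2 replicate 12, the highest of the arrays, 0.60. With the macrophage marker mean as a covariate it was 0.66, with the slow fibre mean 0.71, and with the mean of 24 interferon response genes 0.55.

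Casp1, the caspase of the canonical inflammasome, ran from 5.70 over a median of 6.67 to 6.83 on the P0.3 arrays. On the P1.2 arrays it ran from 6.47 over a median of 6.85 to 7.65. A single P0.3 array, replicate 9, lay far below all others, and 3 P1.2 arrays lay above every P0.3 array. The difference was 0.44 (standard error 0.22, 95% interval -0.02 to 0.90), which did not pass the test (limma, p = 0.0615, adjusted p = 1.000, and two-sided exact permutation test, p = 0.106). Without P0.3 replicate 9 it was 0.27, without P1.2 replicate 6, the highest array, 0.30, and without P0.3 replicate 9 and P1.2 replicate 12 together 0.21. Without P1.2 replicate 4 or P0.3 replicate 11 it was 0.54 or 0.50, each with an unadjusted limma p under 0.05.

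Casp12 encodes a caspase of the endoplasmic reticulum that is grouped with the inflammatory caspases. It ran from 8.87 over a median of 9.31 to 10.25 on the P0.3 arrays and from 9.27 over 9.87 to 10.46 on the P1.2 arrays. The groups overlapped widely, with P0.3 replicate 5 among the highest arrays and P1.2 replicate 12 among the lower ones. The difference was 0.44 (standard error 0.24, 95% interval -0.07 to 0.95) and did not pass the test (limma, p = 0.0839, and exact permutation test, p = 0.143). Without P0.3 replicate 5 or without P1.2 replicate 12 it was 0.60 or 0.57 with an unadjusted limma p under 0.05, and without P0.3 replicate 7 it was 0.32.

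**Figure D1:**
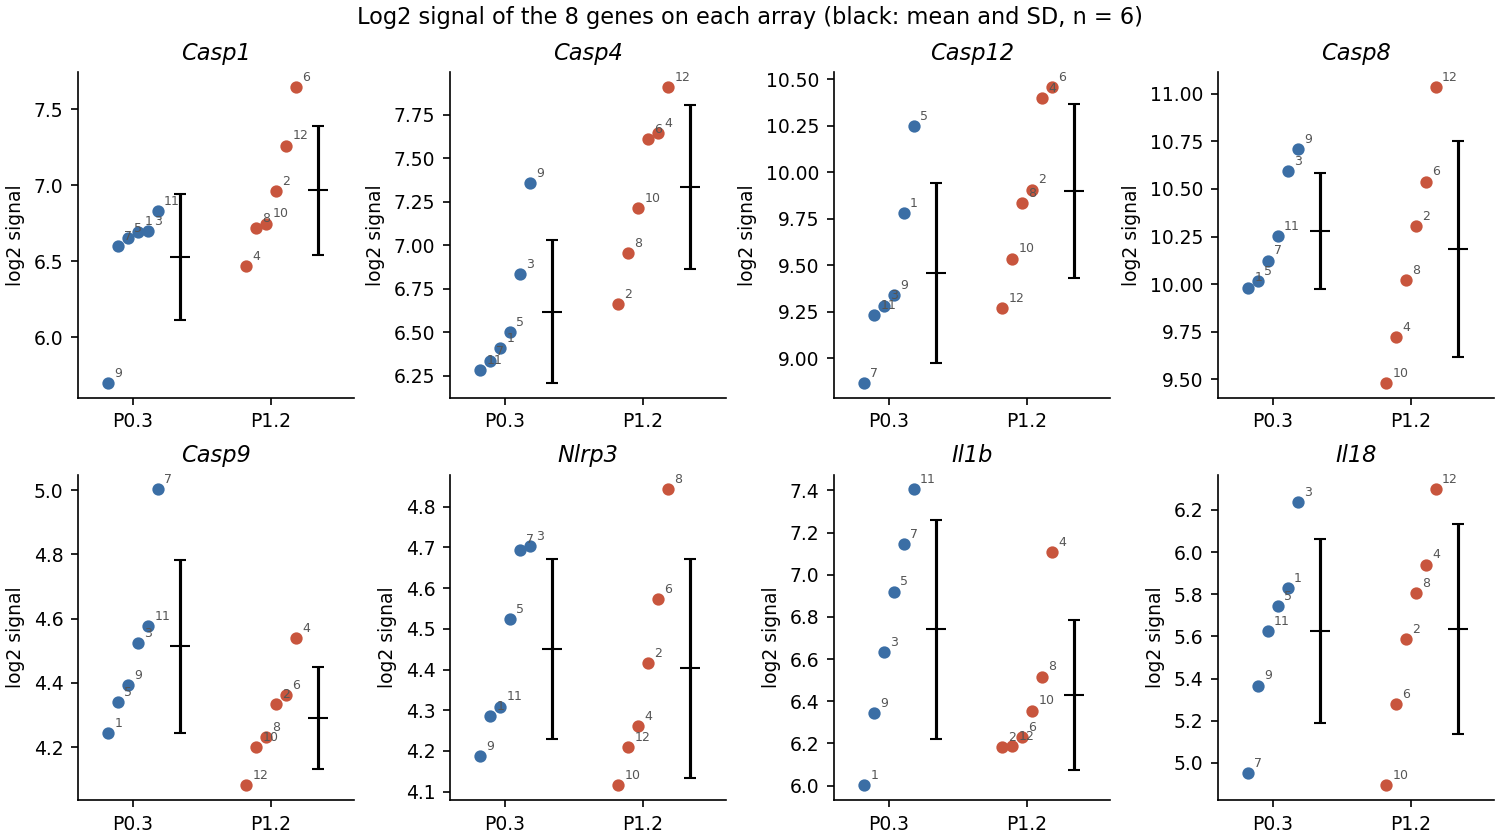
Log2 signal of each of the 8 genes (y axis, own scale per gene) on the 6 P0.3 arrays (blue) and the 6 P1.2 arrays (red). Each point is a mouse with its replicate number, spread sideways by value, and the black bar is the mean with the SD. Casp4, Casp1 and Casp12 have higher P1.2 means, with overlap in all 8 genes.

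The diet difference was 0.71 for Casp4, which was chosen by it, and 0.44 for Casp1 and for Casp12, which did not pass the test. None of the relations between mice of these 3 neighbouring caspase genes passed the test. After the mean of each diet was removed, Pearson's r over the 12 arrays was -0.23 for Casp1 and Casp4 (Spearman's rho -0.05, permutation test, p = 0.498 and p = 0.889). For Casp4 and Casp12 r was -0.02 (rho -0.03, permutation test, p = 0.962 and p = 0.924), and for Casp1 and Casp12 it was 0.07 (rho -0.06, permutation test, p = 0.824 and p = 0.853). The adjusted p over the 28 gene pairs was 0.976 for each of these (permutation test). P0.3 replicate 9 had the highest Casp4 and the lowest Casp1 of its diet. Within the P0.3 arrays r of Casp1 and Casp4 was -0.88, within the P1.2 arrays 0.32, and without P0.3 replicate 9 alone it was 0.28 over both diets. Leaving out any other single array gave -0.43 to -0.14. Without P0.3 replicate 9 and P1.2 replicate 4, the arrays farthest from the median of Casp1 once diet means were removed, it was 0.57.

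Genes to both sides of the 3 caspases were mixed. Among the 14 annotated genes on each side of Casp4, 11 others were on the array, of which 4 had higher P1.2 means and 7 lower ones. Dync2h1, which encodes a motor protein of cilia, was higher by 0.55 (standard error 0.17, exact permutation test, p = 0.0108, adjusted limma p = 1.000), at a mean signal below the 6.11 level, and it stands in the study's supplementary list of changed transcripts. Msantd4 had a difference of -0.35 (standard error 0.13, exact permutation test, p = 0.00433, adjusted limma p = 1.000). Pdgfd, the nearest measured neighbour on the Casp12 side, differed by 0.07, and Gria4, the nearest on the Casp1 side, by -0.07. These neighbours were looked at after the values of the caspases were known.

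**Figure D2:**
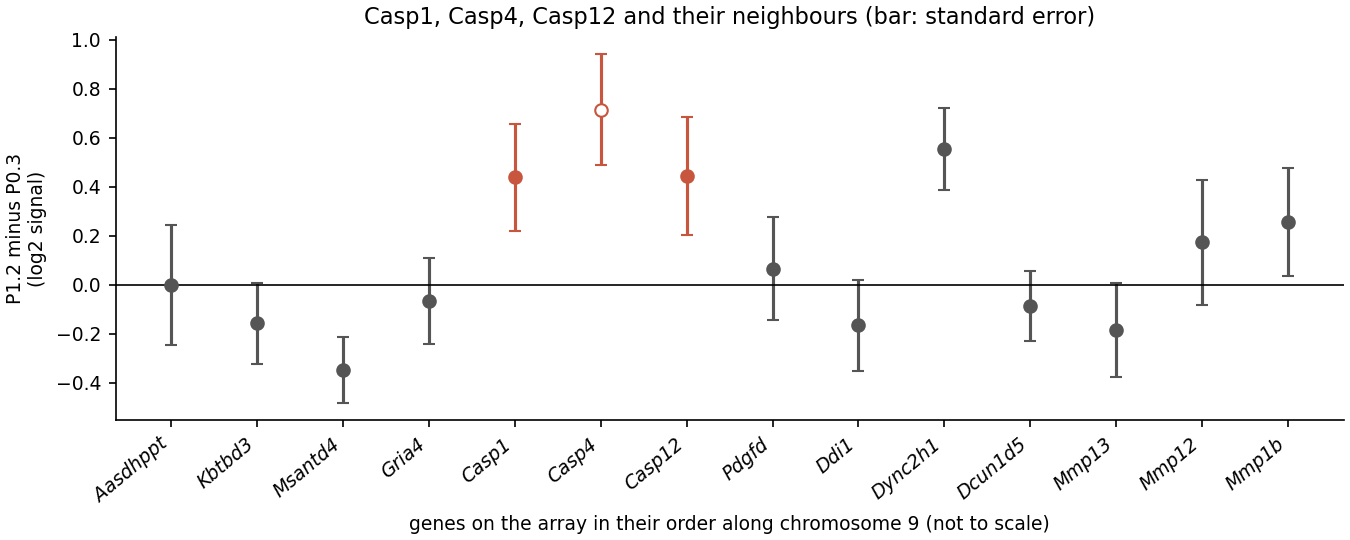
Difference of the mean log2 signals, P1.2 minus P0.3 (y axis, n = 6 arrays per diet), for the genes on the array around Casp4, in their order along chromosome 9 and not to scale. Bars are standard errors from limma, the caspases are red, and the open point is Casp4. Casp1, Casp4 and Casp12 lie at 0.44, 0.71 and 0.44, and the genes next to them near 0.

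The apoptosis initiators did not pass the test. Casp8 ran from 9.98 over a median of 10.19 to 10.71 on the P0.3 arrays and from 9.48 over 10.16 to 11.04 on the P1.2 arrays. The P1.2 arrays held both the highest and the lowest value of the gene, replicates 12 and 10. The difference was -0.10 (standard error 0.23, 95% interval -0.59 to 0.40, limma p = 0.687, exact permutation test, p = 0.723). Casp9 ran from 4.24 over 4.46 to 5.002 on the P0.3 arrays and from 4.08 over 4.28 to 4.54 on the P1.2 arrays. P0.3 replicate 7 was its highest array, and 5 of the 6 P1.2 arrays lay below the P0.3 mean. Its difference of -0.22 (standard error 0.15, 95% interval -0.53 to 0.09) had a limma p of 0.148 and an exact permutation p of 0.0909.

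The sensor gene and the cytokine genes did not pass either. Nlrp3 ran from 4.19 over 4.42 to 4.70 on the P0.3 arrays and from 4.12 over 4.34 to 4.84 on the P1.2 arrays, a difference of -0.05 (standard error 0.16, limma p = 0.760, exact permutation test, p = 0.738). Il1b, the gene of interleukin-1 beta, ran from 6.00 over 6.78 to 7.41 on the P0.3 arrays and from 6.18 over 6.29 to 7.11 on the P1.2 arrays. Of the P1.2 arrays only replicate 4 lay above the P0.3 mean. The difference of -0.31 (standard error 0.23, 95% interval -0.80 to 0.17) had a limma p of 0.190 and an exact permutation p of 0.253, and without P0.3 replicate 1, the lowest array, it was -0.46 with an unadjusted limma p under 0.05. Il18, the gene of interleukin-18, had nearly equal groups, from 4.95 over 5.68 to 6.24 and from 4.89 over 5.69 to 6.30. Its difference was 0.01 (standard error 0.24, limma p = 0.9748, exact permutation test, p = 0.976), with a 95% interval from -0.49 to 0.51. Over the 8 genes, 4 differences were above 0 and 4 below, with a median of -0.02, where the median of all transcripts was -0.01.

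The rest of the cell death and inflammasome machinery was read from 7 lists of 95 genes, of which 93 were on the array. Of these, 2 were higher, 1 was lower and 90 passed in neither direction, or 3.23% in all where 2.28% of all transcripts passed. Caap1 was put on a list with its change in these data known, and without it the share was 2.17% (2 of 92). P2rx4 also stands in the study's supplementary list of changed transcripts, and without Caap1 and P2rx4 the share was 1.1% (1 of 91). The median difference of the 93 genes was 0.01. The higher genes were Caap1 and P2rx4 and the lower one was Panx1, and no adjusted p was under 0.05.

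Caap1, whose product is named as an inhibitor of caspase activity and apoptosis, ran from 6.65 over 6.91 to 7.39 on the P0.3 arrays and from 7.07 over 7.47 to 7.67 on the P1.2 arrays. The groups overlapped only in their inner arrays. The difference was 0.48 (standard error 0.16), given without a test because the gene was listed for it. Like Casp4, both Caap1 and P2rx4 stand in the study's supplementary list of changed transcripts, so neither call is independent of what was known of these data. P2rx4, an ATP-gated ion channel gene, was higher by 0.42 (standard error 0.18, limma p = 0.0316, adjusted p = 1.000, exact permutation test, p = 0.0411), at means of 4.67 and 5.08 that lie below the 6.11 level. It missed the criteria when any of P0.3 replicates 1, 5 and 7 or of P1.2 replicates 2, 6 and 8 was left out, with differences of 0.30 to 0.41. Panx1 encodes the pannexin channel that lets ATP out of cells, and it is itself cut open by caspases. It ran from 6.61 over 7.30 to 7.74 on the P0.3 arrays and from 5.85 over 6.69 to 7.34 on the P1.2 arrays. The difference was -0.60 (standard error 0.26, limma p = 0.0328, adjusted p = 1.000, exact permutation test, p = 0.0801). Leaving out any of P0.3 replicates 1, 5 and 9 or of P1.2 replicates 4 and 6 ended its call, with differences of -0.44 to -0.58, and so did the methods' test.

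By role, 0 of 5 other caspases, 0 of 14 sensors and adaptors, 0 of 6 gasdermin and membrane rupture genes, 0 of 18 interleukin-1 family genes and 0 of 16 mitochondrial apoptosis genes passed. In the same order, 1, 3, 1, 9 and 11 of these genes had mean signals above the level of the olfactory receptors. The gene with the smallest limma p in these lists was Casp2, another initiator caspase, with a difference of -0.26 (exact permutation test, p = 0.271), the sensor Nlrp1b with -0.38 (exact permutation test, p = 0.0368, with a fold just under 1.3), the gasdermin Gsdmc with -0.15 (exact permutation test, p = 0.439), the interleukin-18 receptor subunit Il18r1 with -0.31 (exact permutation test, p = 0.0346) and the anti-apoptotic Mcl1 with 0.38 (exact permutation test, p = 0.0779). All their adjusted limma p rounded to 1.000. Next came Nlrc4 of the sensor and adaptor list with 0.25, Gsdmd with -0.09 and the interleukin-1 alpha gene Il1a with -0.30. Pmaip1, which encodes the pro-apoptotic NOXA, was next in its list with 0.28. Nlrp1b, Gsdmc, Il18r1, Nlrc4, Gsdmd, Il1a and Pmaip1 had mean signals below the level of the olfactory receptors. Their values may be those of background signal, which was not tested. In the death receptor list, Fas, which encodes the receptor itself, was next after Caap1 with a difference of 0.34 (exact permutation test, p = 0.169). Gsdmd, the substrate of caspase-1 and caspase-11, had means of 5.76 ± 0.20 (SD, n = 6) and 5.66 ± 0.25 (SD, n = 6). Of the 16 mitochondrial apoptosis genes 13 had a higher P1.2 mean, with a median difference of 0.14. The counts were 0 of 6 for gasdermins and membrane rupture, 4 of 14 for sensors and adaptors and 2 of 5 for other caspases. They were 8 of 18 for the interleukin-1 family, 9 of 15 for death receptors and 11 of 19 for the NLRP3 activation list. Over all lists, 47 of 93 genes had a higher P1.2 mean, where 48.0% of all transcripts did.

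**Figure D3:**
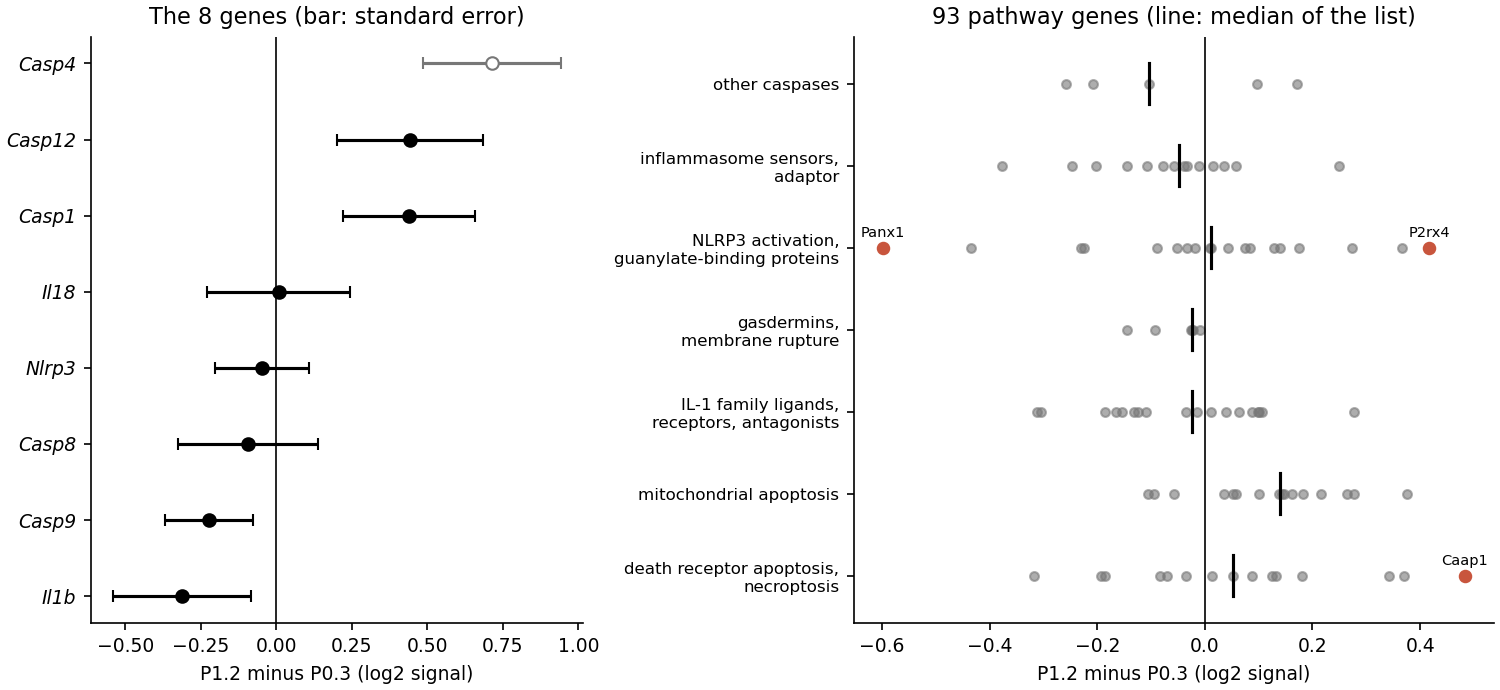
Difference of the mean log2 signals, P1.2 minus P0.3 (x axes, n = 6 arrays per diet). At left the 8 genes with their standard errors, Casp4 as an open point, and at right the 93 pathway genes by list, with the median of each list as a line and the genes that passed the fold and p criteria in red. The 8 genes run from -0.31 for Il1b to 0.71 for Casp4, and the pathway genes from -0.60 for Panx1 to 0.48 for Caap1.

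The genes differed in how much they varied between mice of the same diet. Il18 had an SD within diets of 0.47 (10 degrees of freedom), higher than 92.2% of the 1000 transcripts nearest to it in mean signal. Il1b stood at 87.4%, Casp4 at 86.6%, Casp12 at 82.9%, Casp1 at 82.7% and Casp8 at 79.6%. Casp9 and Nlrp3, whose signals lie at the level of unexpressed transcripts, stood at 16.5% and 25%, with SDs of 0.22 and 0.25.

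Casp8 varied between mice with the markers of several cell types. Over the 12 arrays, with diet means removed, its signal had a Pearson's r of 0.97 with the mean of 12 macrophage markers (Spearman's rho 0.97, permutation test, p = 6.0e-05 and p = 5.0e-05, adjusted p = 0.00432 and p = 0.0024 over 96 relations of 8 genes to 12 marker lists). Within the P0.3 arrays r was 0.89 and within the P1.2 arrays 0.99. Without P1.2 replicates 10 and 12, the arrays farthest out in Casp8, it was 0.92, and leaving out any single array gave 0.94 to 0.99. No transcript of the 22194 outside the list had a higher r with the macrophage mean. The array with the lowest Casp8, P1.2 replicate 10 at 9.48, had the lowest macrophage mean, 6.23, and the array with the highest, P1.2 replicate 12 at 11.04, had the highest macrophage mean, 7.48.

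Of the 12 macrophage markers, 11 had an r above 0 with Casp8 and 6 one above 0.8. The lysosomal glycoprotein gene Cd68 had an r of 0.93, the lysozyme gene Lyz2 0.90, Csf1r, the receptor of the growth factor of macrophages, 0.88, and the complement gene C1qc 0.88. Adgre1, which encodes the F4/80 antigen, had an r of 0.22 and Mertk, a receptor for dying cells, -0.05. Of the 12 markers, 8 had a mean signal above the 6.11 level.

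Other markers moved with Casp8 as well. Its r was 0.94 with the mean of 10 fibroblast markers (rho 0.97, permutation test, p = 9.0e-05 and p = 3.0e-05, adjusted p = 0.00432 and p = 0.0024), 0.87 with 6 erythroid markers (rho 0.87, adjusted permutation p = 0.0173 and p = 0.0205) and 0.75 with 8 markers of monocytes and dendritic cells (rho 0.83, adjusted permutation p = 0.0154 and p = 0.0336). Of the last list, 1 of 8 markers had a mean signal above the 6.11 level. Of the 10 fibroblast markers, 10 had an r above 0 with Casp8 and 8 one above 0.8. Their median r was 0.87 and their lowest 0.74, where the macrophage markers had a median of 0.77 and a lowest r of -0.05. The r of Casp8 was also 0.81 with the interferon response genes, 0.72 with the slow fibre markers and 0.71 with the adipocyte markers (rho 0.70, 0.76 and 0.76), with permutation p of 0.00307, 0.00805 and 0.0293 for r that did not pass adjustment (adjusted p = 0.0589, 0.129 and 0.313). The marker lists themselves moved together: the macrophage mean had an r of 0.92 with the fibroblast mean, 0.82 with the erythroid mean and 0.59 with the slow fibre mean. These arrays therefore do not say which of these cells, fibres included, the Casp8 signal came with. With diet means removed, the transcripts most like Casp8 were Eef1a1 (r = 0.98), Slc9a9 (r = 0.98) and Entpd1 (r = 0.96), which were looked up after the relation was seen. Eef1a1 encodes a translation factor that fibres of adult muscle replace by a paralog, and Entpd1 encodes CD39, an enzyme of leukocytes and vessels that breaks down extracellular ATP.

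**Figure D4:**
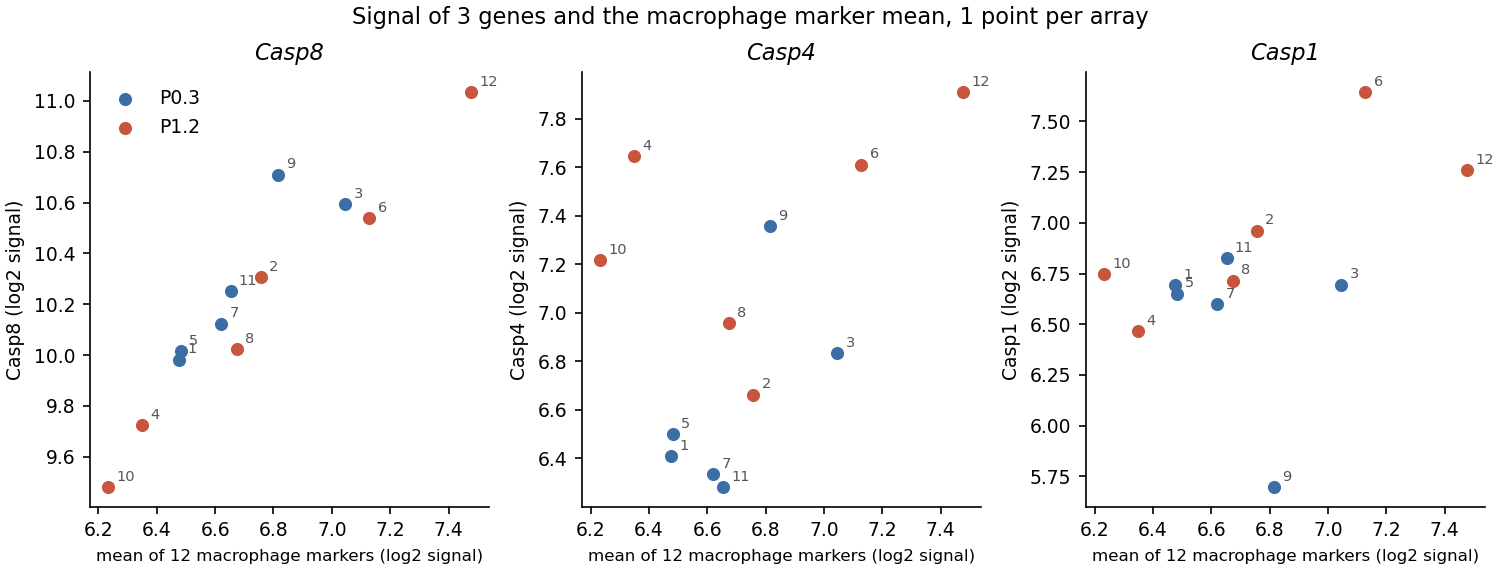
Log2 signal of Casp8, Casp4 and Casp1 (y axes) against the mean log2 signal of 12 macrophage markers (x axes), with 1 point per array, its replicate number, and the diets in blue (P0.3) and red (P1.2). Casp8 rises along the axis on both diets, from 9.48 to 11.04. Casp4 was chosen by its diet difference, so the height of its P1.2 points is a description.

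Casp4 and Casp1 had lower r with the same lists. For Casp4, r was 0.47 with the macrophage mean, 0.54 with the markers of monocytes and dendritic cells and 0.52 with the interferon response genes. These r were 0.18, 0.05 and 0.15 without P0.3 replicate 9 and P1.2 replicate 12, the arrays farthest out in Casp4. None of the 12 relations of Casp4 had a permutation p under 0.05. For Casp1, r was 0.44 with the macrophage mean and 0.08 with the interferon response genes. Its r with the macrophage mean was -0.27 within the P0.3 arrays and 0.80 within the P1.2 arrays, and 0.73 over both diets without P0.3 replicate 9. Without P1.2 replicate 12 that of Casp4 with the macrophage mean was 0.25. Between these r and that of Casp8 the difference was not tested. The macrophage mean itself had medians of 6.64 (range 6.48 to 7.05) on the P0.3 arrays and 6.72 (range 6.23 to 7.48) on the P1.2 arrays (two-sided exact permutation test, p = 0.695), and 0 of its 12 markers passed the fold and p criteria. The interferon response mean had medians of 6.66 (range 6.53 to 6.88) and 6.78 (range 6.61 to 7.07), with p = 0.245 by the exact permutation test and 1 of 24 genes, Dtx3l, passing. Dtx3l also stands in the study's supplementary list of changed transcripts, so its call is not independent of what was known of these data. Of the 8 markers of monocytes and dendritic cells 1 passed, Ccr2, a chemokine receptor gene of monocytes, with a difference of 0.64 at a mean signal of 5.49, below the 6.11 level. The part of these cells in the Casp4 difference was not tested with this list.

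No relation of Casp12 passed adjustment. Its r was -0.71 with the mean of 10 endothelial markers (rho -0.62, permutation test, p = 0.0172 and p = 0.0503) and -0.68 with the mean of 12 fast fibre markers (rho -0.58, permutation test, p = 0.022 and p = 0.068), with adjusted p of 0.236 and 0.264 for r in the permutation test. The fast fibre mean itself ran only from 18.89 to 19.13 over the 12 arrays. By Pearson's r, the strongest relation of Il1b was with the satellite cell markers (r = -0.63, rho -0.41, adjusted permutation p = 0.369 and p = 0.762), and r was -0.12 without P0.3 replicate 11 and P1.2 replicate 4, so it rests on these arrays. By rho it was with the interferon response genes (rho -0.62, r = -0.57, adjusted permutation p = 0.381 and p = 0.400). In all, 11 of the 96 relations had a permutation p under 0.05 for r and 4 an adjusted p under 0.05, all 4 of them of Casp8.

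**Figure D5:**
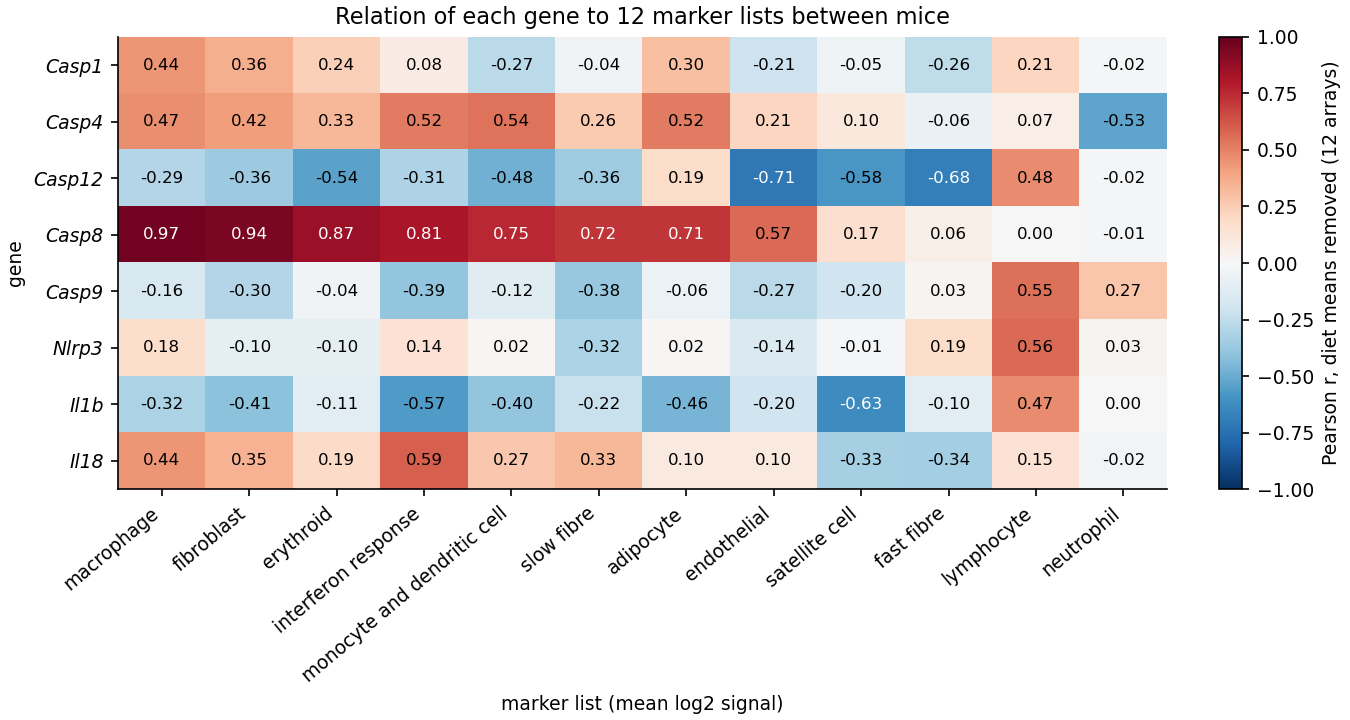
Pearson's r between each gene (rows) and the mean log2 signal of each marker list (columns) over 12 arrays after the mean of each diet was removed. The colour scale runs from -1 to 1. Casp8 stands out with r of 0.97, 0.94 and 0.87 for macrophage, fibroblast and erythroid markers.

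Among the 8 genes themselves, 1 of 28 pairs had a permutation p under 0.05, and none had an adjusted one under 0.05. That pair was Casp9 and Il1b, with an r of 0.66 (rho 0.61, permutation test, p = 0.0337 and p = 0.056, adjusted p = 0.943 for r), 0.65 within the P0.3 arrays and 0.70 within the P1.2 arrays. Without P0.3 replicate 7 and P1.2 replicate 4 it was 0.54. Casp9 had a mean signal below the level of the olfactory receptors, so this relation may be one of background signal, which was not tested. The genes whose products act in 1 complex or step had weak relations between mice: r was 0.29 for Nlrp3 and Casp1, -0.06 for Casp1 and Il1b, 0.12 for Casp1 and Il18 and -0.08 for Il1b and Il18. The lowest permutation p of these pairs was 0.387. Nlrp3 and Il18 also had mean signals below the level of the olfactory receptors. Pairs with either gene therefore cannot tell a weak relation from background signal. Of the pairs named here, only Casp1 and Il1b joins genes with mean signals above that level.

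The transcripts most like each gene between mice were given by the highest r over the 12 arrays, and with 22206 transcripts and 12 arrays high values are found for any gene. For Casp4 they were A3galt2 (r = 0.95), Slc25a31 (r = 0.95) and Ceacam9 (r = 0.90), all with mean signals below the 6.11 level. For Casp1 they were Kif20a (r = 0.89), Smarcc1 (r = 0.85) and Il19 (r = 0.84). For Nlrp3 they were Mmp9 (r = 0.87), Ikzf2 (r = 0.87) and Hsh2d (r = 0.85), and for Il1b Fgf16 (r = 0.92), Noc4l (r = 0.90) and Crk (r = 0.89).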

How the data were processed

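For each transcript the authors made 1 value from its probes by SST-RMA with GC correction (Expression Console, version 1.4). The deposited array table gives these log2 signals for 22206 transcripts on 12 arrays, 1 per mouse without pooling. A rounded copy of the signals, also deposited, differed by at most 0.005. Columns of the authors' own comparison (group means, differences, fold changes and p-values) were not used. No further normalization was applied. Array medians ran from 6.29 to 6.40. The precision is limited by the number of arrays, and no counts lie behind the values.

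The diet difference, P1.2 minus P0.3, was fitted for every transcript with lmFit and eBayes of limma 3.58.1 in R 4.3.3, without trend. Benjamini-Hochberg adjustment ran over the whole table. For single genes and list means, all 924 splits of the arrays gave an exact two-sided permutation p, of which 0.0022 is the smallest possible. Relations between mice used signals with diet means removed and 100000 two-sided permutations within diets. RefSeq (GRCm38.p6) gave current symbols and named 4 further list genes. Other tools were Python 3.11.15 with scipy 1.17.1, numpy 2.4.6, matplotlib 3.10.9 and pandas 2.3.3. The steps were tested on simulated data.

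The genes and lists were chosen with earlier results of these data known. Named were the 8 genes, the pathway genes that passed, the smallest 2 p-values of each pathway list, and the 3 transcripts most like Casp4, Casp1, Nlrp3 and Il1b. One gene under this rule is not reported here. The nearest genes on the chromosome and the transcripts most like Casp8 were added after values were seen. Alternatives were other tests and priors, array weights, quantile normalization, centring on array medians, the rounded table, unlogged signals, a filter on dim transcripts, 1 row per symbol, 3 covariates and leaving out each array. Leaving out P0.3 replicate 9 and P1.2 replicate 12 together was added after the values were seen. The genome build of the array annotation is not given in the sources used here, so its coordinates are not printed.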

Additional observations from a re-analysis of the deposited data

Results flagged for a closer look

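The signals of the 8 genes and the means of the 12 marker lists were looked at for single arrays far from the rest of their diet. In 40 such groups of 6 arrays, 3 held one, where about 1 in 20 is found by chance. Casp1 on P0.3 replicate 9 was 5.70, with the next array at 6.60. Il1b on P1.2 replicate 4 was 7.11, with the next array at 6.52. The neutrophil marker mean on P1.2 replicate 2 was 6.02, with the next array at 5.26, and 1 of its 10 markers had a mean signal above the level of the olfactory receptors. On P1.2 replicate 2 Casp4 was the lowest of its diet, at 6.66, and r of Casp4 with the neutrophil mean was -0.53 over the 12 arrays and -0.11 without that array. The part of that array's neutrophil markers in the Casp4 signal was not tested.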

How the results depend on the processing

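The Casp4 difference of 0.71 was 0.55 to 0.75 under the alternatives and 0.60 to 0.86 when single arrays were left out. The count of higher genes among the 8 was 1 in the main setting and 2 with array weights (Casp12), with arrays centred on their median (Casp1), with the interferon covariate (Casp12) and with P0.3 replicate 9 and P1.2 replicate 12 left out together (Casp12). Without single arrays it was 1 to 2, and the count of lower genes 0 to 1, the latter Il1b without P0.3 replicate 1. In the pathway lists, 2 were higher in the main setting, 1 with the dim filter or the interferon covariate, 3 with array weights, centred arrays or without both arrays, and 1 to 3 without single arrays. The count of lower pathway genes was 1, and 0 with the methods' test and with unequal variances, 2 with array weights or without both arrays, 3 with the macrophage covariate, and 0 to 3 without single arrays. The median difference of the 8 genes was -0.02, but 0.44 with the dim filter, which leaves only 5 of them.

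Over all transcripts, 204 were higher and 303 lower, 240 and 213 after quantile normalization and 287 and 203 with centred arrays. The methods' test gave 142 and 222. With unequal variances 134 were higher, with the dim filter 104 and 66 passed, without P1.2 replicate 4 there were 323 and 478, and without P0.3 replicate 1 there were 455 lower ones. The relation of Casp8 to the macrophage mean was 0.95 to 0.97 under other normalizations, the rounded table, ranks and with the slow fibre mean removed. The causes of these shifts were not tested. No paired analysis was possible because the diets share no replicate numbers. The mean over several rows was not run, since each of the 8 genes has 1 row.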
